A study of Homo sapiens with 18 samples.

Results

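The genes described here build, watch and clear the protein-folding compartment of the cell, the endoplasmic reticulum (ER). They are 36 human genes chosen by name: 16 chaperones and folding enzymes, 4 stress sensors and transducers, 8 genes of ER-associated degradation, 5 of translocation and signal peptide removal, and 3 of COPII vesicle export. All 36 were found among the 42141 genes of the deposited tables, and 35 of them passed the filter on low counts that left 16911 genes to test. The exception was DERL3, a derlin of ER-associated degradation, which had 6.11 expected counts over all 18 libraries. Its TPM did not go above 0.200 in any library, so it was not tested.

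RNA came from acini, the hollow spheres that mammary epithelial cells form in basement membrane gel, grown from the human mammary epithelial cell line MCF-10A.B2. These cells carry a HER2 kinase fusion that the ligand B/B homodimerizer pairs and so switches on. There were 6 groups of 3 libraries: JNK-knockout cells (JNKKO) and wild-type cells (WT), each kept for 7 days in gel with EGF and then for 14 days, to day 21, with ethanol (control), with dimerizer, or with dimerizer and TGF-β1. TGF-β1 was given only on top of dimerizer. The medium of all groups held horse serum, insulin, cholera toxin and hydrocortisone. The sources used here do not say which JNK genes were edited, whether the JNKKO line is 1 clone, or whether libraries came from separate cultures, so p-values cover the spread between these libraries, which may be technical.

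Secreted and membrane proteins enter the ER through the SEC61 channel, lose their signal peptide, and are folded by chaperones such as BiP, the product of HSPA5. When unfolded protein builds up, the sensors IRE1 (ERN1), PERK (EIF2AK3) and ATF6 leave BiP and start the unfolded protein response, in which IRE1 splices XBP1 mRNA into a form that encodes an active transcription factor. Proteins that do not fold are drawn back through the membrane by the HRD1-SEL1L complex and degraded, and those that fold leave in COPII vesicles. The counts are per gene, so spliced and unspliced XBP1 mRNA cannot be told apart in them.

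Promoter sequence was read first, because ATF6 and spliced XBP1 are known to bind ER stress elements in genes of this kind. The RefSeq promoter table (build GRCh38.p14, from 250 bases before to 50 after each listed start) held 32 of the 36 genes and was searched on both strands at every listed start of a gene. The ER stress element (ERSE), which is CCAAT and CCACG with any 9 bases between them, was present in 7 of 32 member genes (21.9%), against 25 of 27305 genes in the table (0.0916%). ERSE-II, which is ATTGG, any base and then CCACG, was present in 3 of 32 (9.38%), against 19 genes of the table (0.0696%). The unfolded protein response element (UPRE), TGACGTGG, was present in 2 of 32 (6.25%), against 253 genes (0.927%). At least 1 of the 3 motifs stood in 11 of 32 member genes (34.4%), against 295 genes of the table (1.08%). These shares describe the letters in these windows and say nothing about binding in the acini.

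Below are the motif windows of 6 genes whose values recur in the results, written 5′ to 3′ on the strand of the gene with the motif in capitals. They lie at chr9:125241383-125241417 (HSPA5, minus strand), chr12:103930208-103930242 (HSP90B1, plus strand), chr22:28800595-28800629 (XBP1, minus strand), chr11:119057372-119057398 (HYOU1, minus strand), chr16:56932017-56932043 (HERPUD1, plus strand) and chr3:156554151-156554174 (SSR3, minus strand).
HSPA5 ERSE: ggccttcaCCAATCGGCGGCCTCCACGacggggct
HSP90B1 ERSE: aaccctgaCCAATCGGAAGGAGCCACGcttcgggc
XBP1 ERSE: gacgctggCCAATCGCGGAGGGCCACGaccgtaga
HYOU1 ERSE-II on the opposite strand: ccccgtgaCGTGGTCCAATcccaggcc
HERPUD1 ERSE-II: ggacgccgATTGGGCCACGttgggaga
SSR3 UPRE on the opposite strand: gataacagCCACGTCAgcaaggaa

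The motif began 66 bases before the start of HSPA5, 52 before that of XBP1 and 117 before that of HERPUD1. HSP90B1 and HYOU1 held a second copy of their element, and the UPRE of HYOU1 overlapped the ERSE-II shown. The remaining matches were ERSE in CALR, CANX, PDIA6 and CRELD2 and ERSE-II in SDF2L1. By role, 8 of 15 chaperones and folding enzymes held a motif, 1 of 4 sensors and transducers, 1 of 6 degradation genes, 1 of 5 translocation genes and 0 of 2 COPII genes.

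Each library held between 24243537 and 34499651 expected counts. JNK mRNA was present in the JNKKO libraries: MAPK8 (JNK1) lay between 25.5 and 34.9 CPM (read counts scaled by library size with TMM factors) in the 9 JNKKO libraries against 22.8 to 35.1 CPM in the 9 WT libraries, and MAPK9 (JNK2) from 42.1 to 53.9 CPM in JNKKO, against 57.1 to 68.4 CPM in WT. The genotypes overlapped for MAPK8 and not for MAPK9. Replicate 3 of WT with dimerizer and TGF-β1 has a title naming WT and a genotype tag naming the knockout. It was kept with WT by its title, and its MAPK9 level of 65.4 CPM lay within the WT range. PCSK1N, chosen after its values were seen because it separated the genotypes, had 0 to 0.07 CPM in the JNKKO libraries and 9.08 to 17.7 CPM in the WT libraries, with 17.7 CPM in this replicate. Results that use this library are given with and without it where it ended a call or moved a count. Keratins of basal mammary epithelium were abundant in every library, with KRT5 between 1989 and 4626 TPM, while 3 endothelial markers summed to between 0.10 and 2.30 TPM, nearly all of it PECAM1, and 4 immune markers to between 7.41 and 41.1 TPM, mostly CD68. The defining markers CDH5, VWF and CD3E did not go above 0.02, 0.05 and 0.08 TPM, and PTPRC did not go above 0.26 TPM. Mitochondrially encoded genes took 10.8% of counts in JNKKO control, 8.90% in JNKKO with dimerizer and 5.38% in JNKKO with dimerizer and TGF-β1, and 15.2%, 9.0% and 9.19% in the WT groups in the same order.

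On the TPM scale, which allows genes to be compared, the calcium-binding chaperone CANX was the most abundant member, with a median of 305 TPM over the 18 libraries and a range of 274 to 363 TPM. Next came CALR at a median of 260.1, HSP90B1 at 246 and P4HB at 219.7 TPM, and the ranges of these 4 genes over the libraries overlap. The channel subunit SEC61B had 155 TPM and BiP's gene HSPA5 148 TPM. The lowest of the tested members were ATF6 at 12.9, the chaperone DNAJB9 at 9.48, the COPII cargo adaptor SEC24D at 7.25, ERN1 at 7.00 and EIF2AK3 at 5.02 TPM. Summed over the 16 chaperones and folding enzymes, the level was 1510.2 ± 19.6 TPM in JNKKO control, 1748 ± 64.8 with dimerizer and 2673 ± 85.6 with dimerizer and TGF-β1 (mean ± SD, n = 3 each). In WT the same sum was 1401 ± 29.3 TPM in control, 1604 ± 13.3 with dimerizer and 2390.2 ± 117 with dimerizer and TGF-β1. The chaperone sum was thus ordered by treatment in both genotypes, with no overlap of the groups on this scale. In the tests on counts given below, dimerizer in WT raised 5 of these 16 genes and lowered 3. Their median log2 difference was 0.02, against 0.03 for all tested genes. The summed level of the 7 expressed degradation genes and DERL3 was 146 ± 5.66, 165 ± 9.34 and 250.4 ± 13.8 TPM in the 3 JNKKO groups and 165 ± 0.803, 160.1 ± 1.11 and 249 ± 8.23 TPM in the 3 WT groups, again from control to dimerizer with TGF-β1. For the 3 COPII genes it was 84.8 ± 0.962, 88.5 ± 3.99 and 123 ± 3.87 TPM in JNKKO and 91.7 ± 3.26, 97.1 ± 1.60 and 124 ± 4.29 TPM in WT.

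By mean CPM, 24 of the 35 tested genes had their highest group in JNKKO with dimerizer and TGF-β1 and 17 had their lowest in JNKKO control. The spread between the highest and the lowest group was 2.78-fold for MANF, 2.72-fold for PDIA5 and 2.61-fold for SEC24D, and 1.17-fold for EIF2AK3 and 1.18-fold for CANX. The shares of all tested genes with the same highest or lowest group are not given here, so these counts have no baseline. The fold ratios are a description of group means and carry no test.

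Whether dimerizer changed these genes in the knockout acini was the first comparison. Dimerizer raised 28 of the 35 tested members and lowered 0 in JNKKO, where 22.5% of all tested genes rose and 17.9% fell (quasi-likelihood F test of edgeR, with p-values adjusted by Benjamini-Hochberg over 16911 genes and a threshold of 0.05, as for every call that follows). At an unadjusted p under 0.05 edgeR also found 0 members lower, and so did DESeq2 at its adjusted p. The median log2 difference of the members was 0.23, against 0.01 for all tested genes. The 2 groups of libraries did not overlap for 28 members, and for 49.3% of all tested genes. By role, 14 of 16 chaperones and folding enzymes rose, 3 of 4 sensors and transducers, 5 of 7 degradation genes, 4 of 5 translocation genes and 2 of 3 COPII genes. In bulk RNA, fewer cells of a type and less RNA per cell cannot be told apart.

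HSPA5, whose product BiP binds unfolded protein and holds the sensors inactive, had 516, 595 and 535 CPM in the JNKKO dimerizer libraries, against 379.9, 372 and 362 CPM in JNKKO control. The groups did not overlap, and the log2 difference was 0.56 ± 0.04 (SE; adjusted p = 2.17e-11). XBP1 had 69.4, 99.9 and 75.5 CPM with dimerizer and 41.3, 40.2 and 42.6 CPM in control. Its groups did not overlap either, and the second dimerizer library stood above the other two. The log2 difference of XBP1 was 0.98 ± 0.11 (adjusted p = 4.61e-06), the largest of the 35 members, and 0.81 without that library. The second library was also the highest of its group for HSPA5 and HYOU1, and without it 25 members rose and 0 fell, with HSPA5 at 0.50. The calls of DNAJB11, SEC61A1, SEL1L (log2 0.08) and ERN1 (log2 0.13) were lost without it. With TPM in place of counts 21 rose and 0 fell, and DNAJB11, SEL1L, CALR, DERL1, SEC61A1, ERN1 and CANX were not called.

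**Figure D1:**
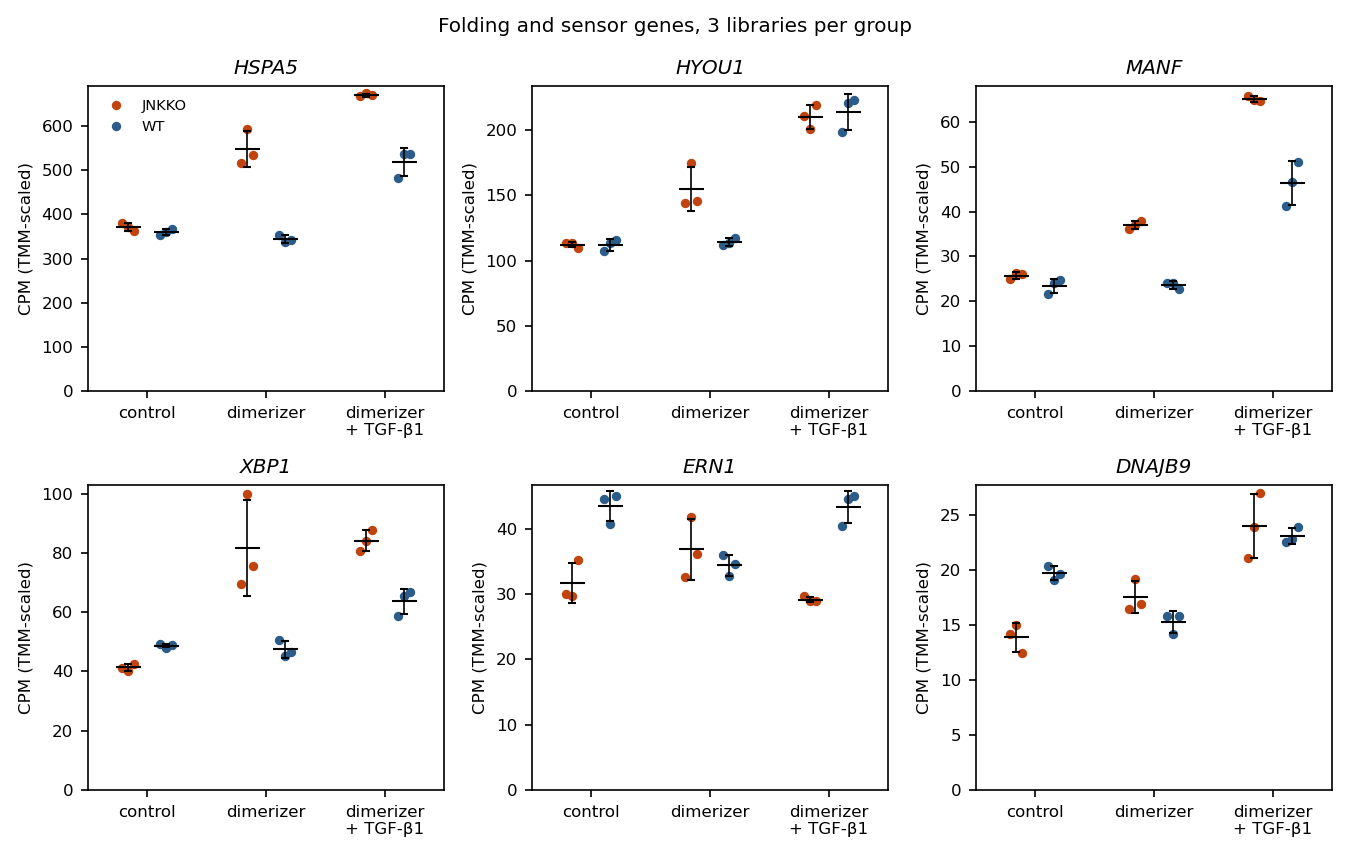
TMM-scaled CPM (vertical axis) of HSPA5, HYOU1, MANF, XBP1, ERN1 and DNAJB9 in each library (points) with the mean and SD of 3 libraries, for control, dimerizer and dimerizer with TGF-β1 from left to right and JNKKO left of WT within each treatment. XBP1 in JNKKO lies between 69.4 and 99.9 CPM with dimerizer and between 40.2 and 42.6 CPM in control.

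The same treatment raised the chaperones HYOU1 by 0.47, MANF by 0.53, PDIA5 by 0.48 and DNAJB9 by 0.34 on the log2 scale in JNKKO. HYOU1 is a nucleotide exchange factor of BiP, MANF is a secreted ER protein induced by stress, PDIA5 is a disulfide isomerase and DNAJB9 is a BiP co-chaperone. SDF2L1 (0.06 ± 0.12) and CRELD2 (0.12 ± 0.07) were not called. Among the sensors, ATF6 rose by 0.31 and ERN1 by 0.23, while EIF2AK3 had a log2 difference of 0.01 ± 0.07 and was not called.

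In the degradation group EDEM1, a lectin that marks misfolded glycoproteins for disposal, had 146, 156 and 148 CPM with dimerizer and 96.4, 97.9 and 96.6 CPM in JNKKO control. These groups were far apart, with a log2 difference of 0.63 ± 0.03 (adjusted p = 1.91e-14). HERPUD1, a scaffold of the HRD1 complex, had 36.3, 42.8 and 37.9 CPM with dimerizer and 33.1, 35.3 and 31.6 CPM in control, a log2 difference of 0.23 ± 0.06 (adjusted p = 0.00141). The groups of HERPUD1 came close without overlapping. SEL1L, the adaptor of that complex, had 80.2, 95.2 and 80.6 CPM with dimerizer and 79.4, 76.5 and 73.2 CPM in control. SEL1L differed by 0.16 ± 0.05 (adjusted p = 0.0176), and its call was also lost without the third control library (log2 0.13). SYVN1, which encodes the ubiquitin ligase HRD1 itself, had a log2 difference of -0.03 ± 0.06 and DERL2 one of 0.05 ± 0.06, and neither was called.

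Of the translocation genes, SSR3, a subunit of the translocon-associated TRAP complex, had 116, 124 and 116 CPM with dimerizer and 93.7, 91.6 and 93.0 CPM in control, with no overlap and a log2 difference of 0.36 ± 0.04 (adjusted p = 2.34e-08). SEC24D, the COPII subunit that picks cargo, had 19.7, 23.5 and 21.9 CPM with dimerizer and 16.1, 16.5 and 15.9 CPM in control, also without overlap, a log2 difference of 0.43 ± 0.06 (adjusted p = 2.23e-06). The inner coat gene SEC23B rose by 0.33, and the outer coat gene SEC31A had a log2 difference of -0.07 ± 0.04 and was not called.

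**Figure D2:**
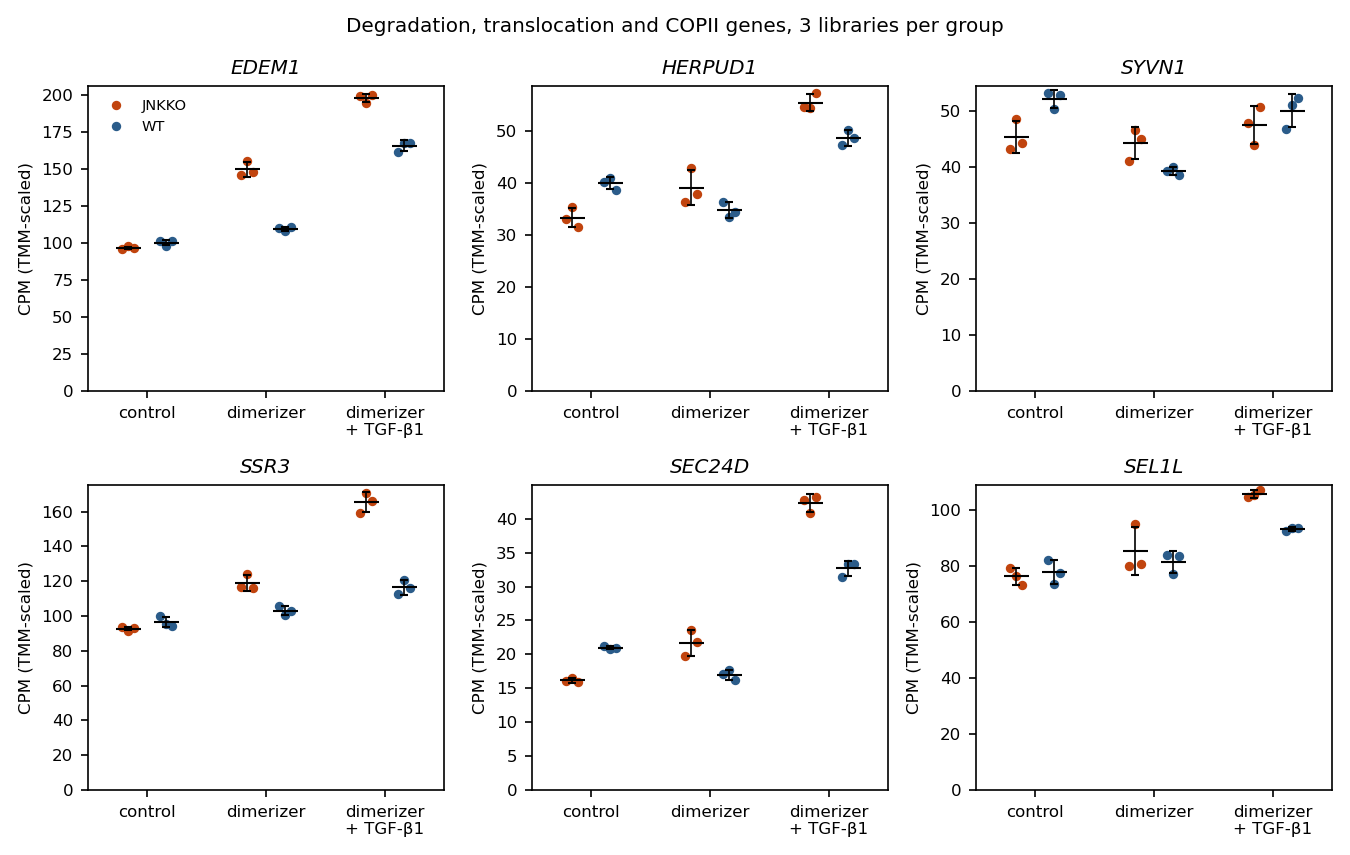
TMM-scaled CPM (vertical axis) of EDEM1, HERPUD1, SYVN1, SSR3, SEC24D and SEL1L in each library (points) with the mean and SD of 3 libraries, for control, dimerizer and dimerizer with TGF-β1 from left to right and JNKKO left of WT within each treatment. SEC24D is highest in the 3 JNKKO libraries with TGF-β1, between 40.8 and 43.3 CPM.

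In WT 9 members rose and 9 fell of 35 with dimerizer, which is near the 30.3% of all tested genes that rose and the 25.6% that fell. The TPM scale gave 15 higher and 3 lower on log2(TPM + 1). The share of all genes called on that scale is not given here, so this TPM count has no baseline. On the count scale the median log2 difference was 0.000875 for the members and 0.03 for all tested genes. Groups without overlap were seen for 23 members and 62.1% of all tested genes. Of the chaperones and folding enzymes 5 rose and 3 fell, of the sensors 1 rose and 2 fell, of the degradation genes 1 rose and 3 fell, of the translocation genes 2 rose, and of the COPII genes 1 fell.

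The members that rose in WT were led by PDIA5, which had 16.9, 18.4 and 17.1 CPM with dimerizer and 9.71, 10.9 and 10.9 CPM in control. Its groups did not overlap (log2 0.73 ± 0.08, adjusted p = 4.78e-09). PDIA4, P4HB and CANX rose by 0.29, 0.22 and 0.22. SSR1, a TRAP subunit, had 147, 142 and 140.4 CPM with dimerizer and 138, 135 and 127 CPM in control, a log2 difference of 0.10 ± 0.04 (adjusted p = 0.036) that was not called without control replicate 2 (log2 0.11), control replicate 3 (0.07), dimerizer replicate 1 (0.08) or dimerizer replicate 2 (0.11).

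Those that fell in WT included SYVN1, with 39.2, 40.0 and 38.6 CPM under dimerizer and 53.1, 50.2 and 52.9 CPM in control. These did not overlap (log2 -0.41 ± 0.06, adjusted p = 4.53e-07). ERN1 had 35.9, 32.7 and 34.6 CPM with dimerizer and 44.5, 40.8 and 44.99 CPM in control, a log2 difference of -0.34 ± 0.07 (adjusted p = 0.000424), which on log2(TPM + 1) was -0.19 with an adjusted p of 0.0588. SEC24D had 17.0, 17.7 and 16.2 CPM with dimerizer and 21.3, 20.8 and 20.9 CPM in control. Its log2 difference was -0.31 ± 0.06 (adjusted p = 8.58e-05), and on log2(TPM + 1) it was -0.13 (adjusted p = 0.0908). HERPUD1, with 36.4, 33.5 and 34.4 CPM under dimerizer and 40.2, 41.0 and 38.7 CPM in control, had a log2 difference of -0.20 ± 0.05 (adjusted p = 0.00234), which was not called on log2(TPM + 1).

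EDEM2 had 16.6, 16.8 and 17.2 CPM with dimerizer and 19.97, 21.6 and 20.8 CPM in control (log2 -0.30 ± 0.06, adjusted p = 0.000103). EDEM1 and SSR3 were called higher in WT, with log2 differences of 0.13 ± 0.03 and 0.09 ± 0.04. HSPA5, XBP1 and SEL1L were not called in WT. HSPA5 had 353, 337 and 342 CPM with dimerizer and 354, 360.0 and 367 CPM in control (log2 -0.07 ± 0.04). XBP1 had 50.6, 45.2 and 46.5 CPM with dimerizer, against 49.4, 48.1 and 48.8 CPM in control (log2 -0.04 ± 0.11). SEL1L had 84.1, 77.1 and 83.5 CPM with dimerizer and 82.3, 73.7 and 77.5 CPM in control, which overlapped.

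The difference between genotypes in the dimerizer response was tested as an interaction term, JNKKO minus WT. The interaction was positive for 20 of 35 members and negative for 0, against 21.4% and 21.2% of all tested genes. At an unadjusted p under 0.05 edgeR found 22 positive and 1 negative, and DESeq2 at its adjusted p found 20 and 0. On log2(TPM + 1), where the median of all genes was -0.09, the count was 11 positive and 5 negative, the negative ones being PDIA5, PDIA4, SEC31A, P4HB and CANX. The largest interactions were those of XBP1 (1.03 ± 0.15, adjusted p = 8.09e-05), SEC24D (0.74 ± 0.09, adjusted p = 7.28e-08), DNAJB9 (0.71 ± 0.12, adjusted p = 1.28e-05) and HSPA5 (0.63 ± 0.06, adjusted p = 2.5e-09). In the degradation group EDEM2 (0.56 ± 0.09) and EDEM1 (0.50 ± 0.05), mannosidase-like proteins of glycoprotein disposal, stood highest, and SEC61B led the translocation genes (0.31 ± 0.08). The calls of XBP1, SEC24D, DNAJB9, HSPA5, EDEM2, EDEM1, MANF, HYOU1, ERN1, HERPUD1 and DNAJC3 held on log2(TPM + 1), and that of SEC61B did not. Without the second JNKKO dimerizer library the interaction of XBP1 was 0.85 and that of ATF6 was not called.

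**Figure D3:**
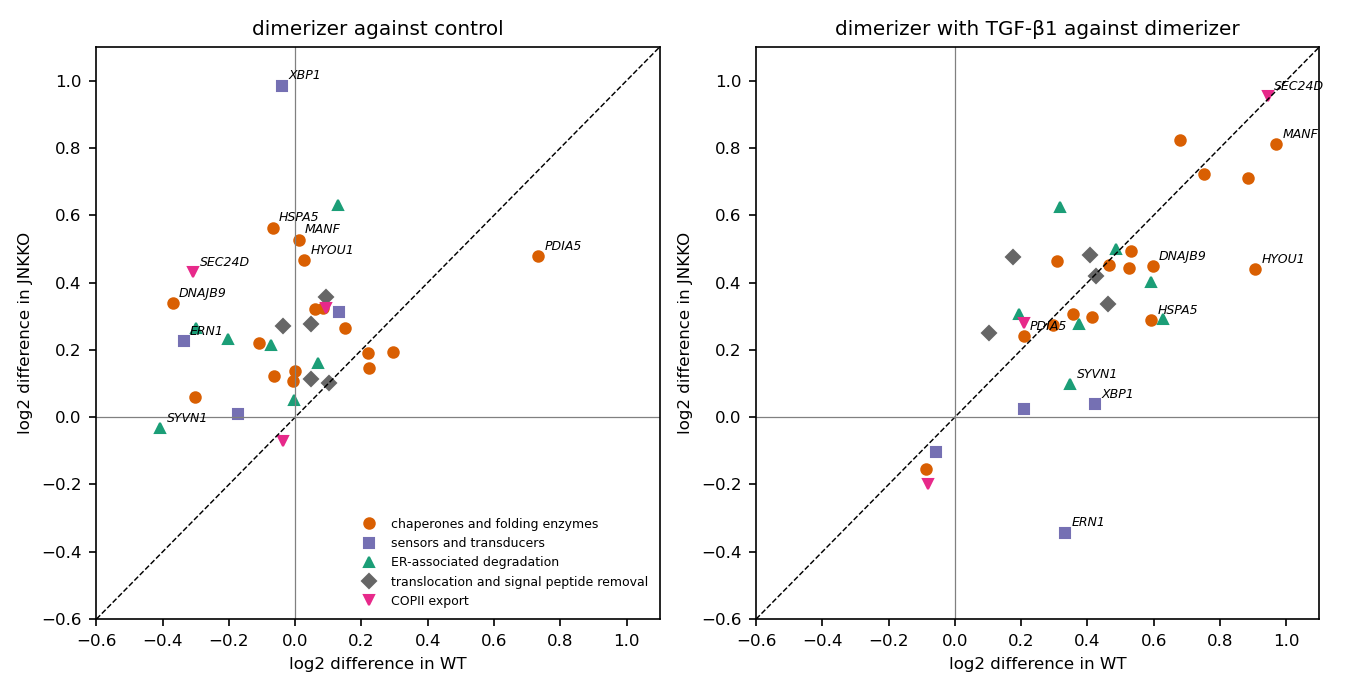
Log2 differences of the 35 tested members in WT (horizontal axis) and JNKKO (vertical axis), for dimerizer against control (left) and dimerizer with TGF-β1 against dimerizer (right). Each point is a gene and the dashed line marks equal differences. In the left panel XBP1 lies at -0.04 in WT and 0.98 in JNKKO, and in the right panel ERN1 lies at 0.33 in WT and -0.34 in JNKKO.

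Adding TGF-β1 to dimerizer was compared with dimerizer alone, so these differences share the dimerizer libraries with those above. In JNKKO 28 members rose and 4 fell of 35, against 30.5% and 30.3% of all tested genes, with a median log2 difference of 0.33 against -0.01. Groups did not overlap for 32 members and for 64.8% of all tested genes. The TPM scale gave 32 higher and 0 lower, and the median of all genes was 0.16 on that scale. The 4 that fell on the count scale were CANX, ATF6, ERN1 and SEC23B, and on log2(TPM + 1) the log2 differences of ATF6 and SEC23B were positive. Of the chaperones and folding enzymes 15 rose and 1 fell, of the sensors 0 rose and 2 fell, all of the 5 translocation genes and 6 of 7 degradation genes rose, and of the COPII genes 2 rose and 1 fell.

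SEC24D had 42.8, 40.8 and 43.3 CPM in JNKKO with TGF-β1 and 19.7, 23.5 and 21.9 CPM with dimerizer alone. The groups were far apart (log2 0.95 ± 0.06, adjusted p = 9.98e-15). CRELD2, an ER stress-induced protein with thioredoxin-like motifs, had 40.0, 38.4 and 38.8 CPM with TGF-β1 and 23.5, 20.1 and 22.7 CPM without (log2 0.82 ± 0.06, adjusted p = 2.98e-12). Beside it MANF rose by 0.81 and CALR by 0.72. DERL2 had 34.7, 35.7 and 35.3 CPM with TGF-β1 and 22.1, 24.4 and 21.9 CPM with dimerizer alone (log2 0.62 ± 0.06, adjusted p = 9.76e-11). SEC61B had 58.3, 58.4 and 55.9 CPM with TGF-β1, against 43.6, 38.3 and 41.8 CPM without it (log2 0.48 ± 0.05, adjusted p = 9.21e-09). The groups of SEC24D, CRELD2, DERL2 and SEC61B did not overlap.

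XBP1 had 80.6, 84.0 and 87.8 CPM in JNKKO with TGF-β1, a spread that overlapped the dimerizer libraries (log2 0.04 ± 0.10, adjusted p = 0.759). Without the second dimerizer library its log2 difference was 0.21 and passed the threshold. ERN1 had 29.7, 28.9 and 28.9 CPM with TGF-β1 and 32.6, 41.7 and 36.1 CPM with dimerizer alone, with no overlap and a log2 difference of -0.34 ± 0.08 (adjusted p = 0.000483), which was -0.10 and not called on log2(TPM + 1). HSPA5 had 667, 674 and 669.7 CPM with TGF-β1 in JNKKO (log2 0.29 ± 0.04). HERPUD1 had 54.5, 54.4 and 57.3 CPM (log2 0.50 ± 0.05) and SEL1L 105, 105 and 107 CPM (log2 0.31 ± 0.05), each above all 3 dimerizer libraries.

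In WT TGF-β1 raised 32 members and lowered 1 of 35, against 33.4% and 31.8% of all tested genes. The median log2 difference was 0.41, against 0.0017 for all genes, and groups did not overlap for 33 members and 69.6% of all tested genes. The gene that fell was CANX, at -0.09 ± 0.04 on the count scale and with a positive sign on log2(TPM + 1), where the median of all genes was 0.11. Without the replicate that carries both genotype labels 29 rose and 0 fell, and the calls of PDIA5, SSR1, EIF2AK3 and CANX were lost. MANF had 41.2, 46.7 and 51.0 CPM with TGF-β1 and 24.0, 24.2 and 22.7 CPM with dimerizer alone (log2 0.97 ± 0.06, adjusted p = 1.77e-14). SEC24D had 31.4, 33.3 and 33.3 CPM with TGF-β1, against 17.0, 17.7 and 16.2 CPM without it (log2 0.94 ± 0.06, adjusted p = 1.56e-14). Neither gene overlapped between the groups.

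XBP1 had 58.9, 65.4 and 66.7 CPM in WT with TGF-β1 and 50.6, 45.2 and 46.5 CPM with dimerizer alone (log2 0.42 ± 0.10, adjusted p = 0.00262). EDEM2 had 25.2, 25.6 and 27.6 CPM with TGF-β1 and 16.6, 16.8 and 17.2 CPM without (log2 0.63 ± 0.06, adjusted p = 1.19e-10). SPCS3, a signal peptidase subunit, had 127, 135 and 133 CPM with TGF-β1 and 97.6, 95.2 and 94.2 CPM without (log2 0.46 ± 0.04, adjusted p = 1.52e-10). In all 3 genes every TGF-β1 library lay above every dimerizer library. HSPA5 rose by 0.59, HERPUD1 by 0.49, SEL1L by 0.19 and ERN1 by 0.33. HSPA5 had 483, 537 and 536 CPM with TGF-β1, HERPUD1 47.2, 50.2 and 48.5 CPM and SEL1L 92.6, 93.5 and 93.8 CPM.

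The difference between genotypes in the TGF-β1 response was positive for 3 members and negative for 7 at the threshold, against 14.1% and 18.8% of all tested genes. The positive count lay below the share of all tested genes and the negative count near it. The TPM scale gave 3 positive and 4 negative. ERN1 had the largest called interaction (-0.68 ± 0.11, adjusted p = 2.9e-05), followed by HYOU1 (-0.47 ± 0.09, adjusted p = 0.00027) and EDEM2 (-0.34 ± 0.08, adjusted p = 0.00209). The positive ones were P4HB (0.16 ± 0.05), DERL2 (0.31 ± 0.08) and SSR3 (0.30 ± 0.06), of which DERL2 was not called on log2(TPM + 1), where SEC31A was. Without the replicate with both genotype labels 4 were positive and 5 negative, and SYVN1 and DNAJC3 were no longer called. Without the second JNKKO dimerizer library 5 were positive and 7 negative, XBP1 joined the negative ones at -0.21, and DNAJC3 was no longer called.

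Levels of other cell type markers moved with the treatments. The summed TPM of 4 fibroblast markers, nearly all of it DCN, was 53.9 to 67.0 in JNKKO with TGF-β1 and 76.8 to 111 in WT with TGF-β1, against 11.1 to 17.97 in JNKKO with dimerizer and 13.1 to 13.9 in WT with dimerizer. PDGFRA did not go above 0.08 TPM. The sum of 4 immune markers, mostly CD68, was 33.7 to 36.7 TPM in JNKKO with dimerizer, against 7.41 to 8.48 TPM in JNKKO control. In WT it was 9.36 to 10.2 TPM with dimerizer and 9.89 to 11.3 TPM in control, so the dimerizer libraries lay above control in JNKKO and overlapped it in WT, beside the positive interactions of 20 members given above. With TGF-β1 it was 37.1 to 41.1 TPM in JNKKO and 11.0 to 16.4 TPM in WT. PTPRC and CD3E did not go above 0.26 and 0.08 TPM in any library. All libraries came from the mammary epithelial cell line named above. The share of mitochondrially encoded counts given above moved with the groups as well. The part of the marker levels in the results was not tested, and with the mitochondrially encoded genes left out 26 members rose and 0 fell with dimerizer in JNKKO, and 7 rose and 9 fell in WT.

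**Figure D4:**
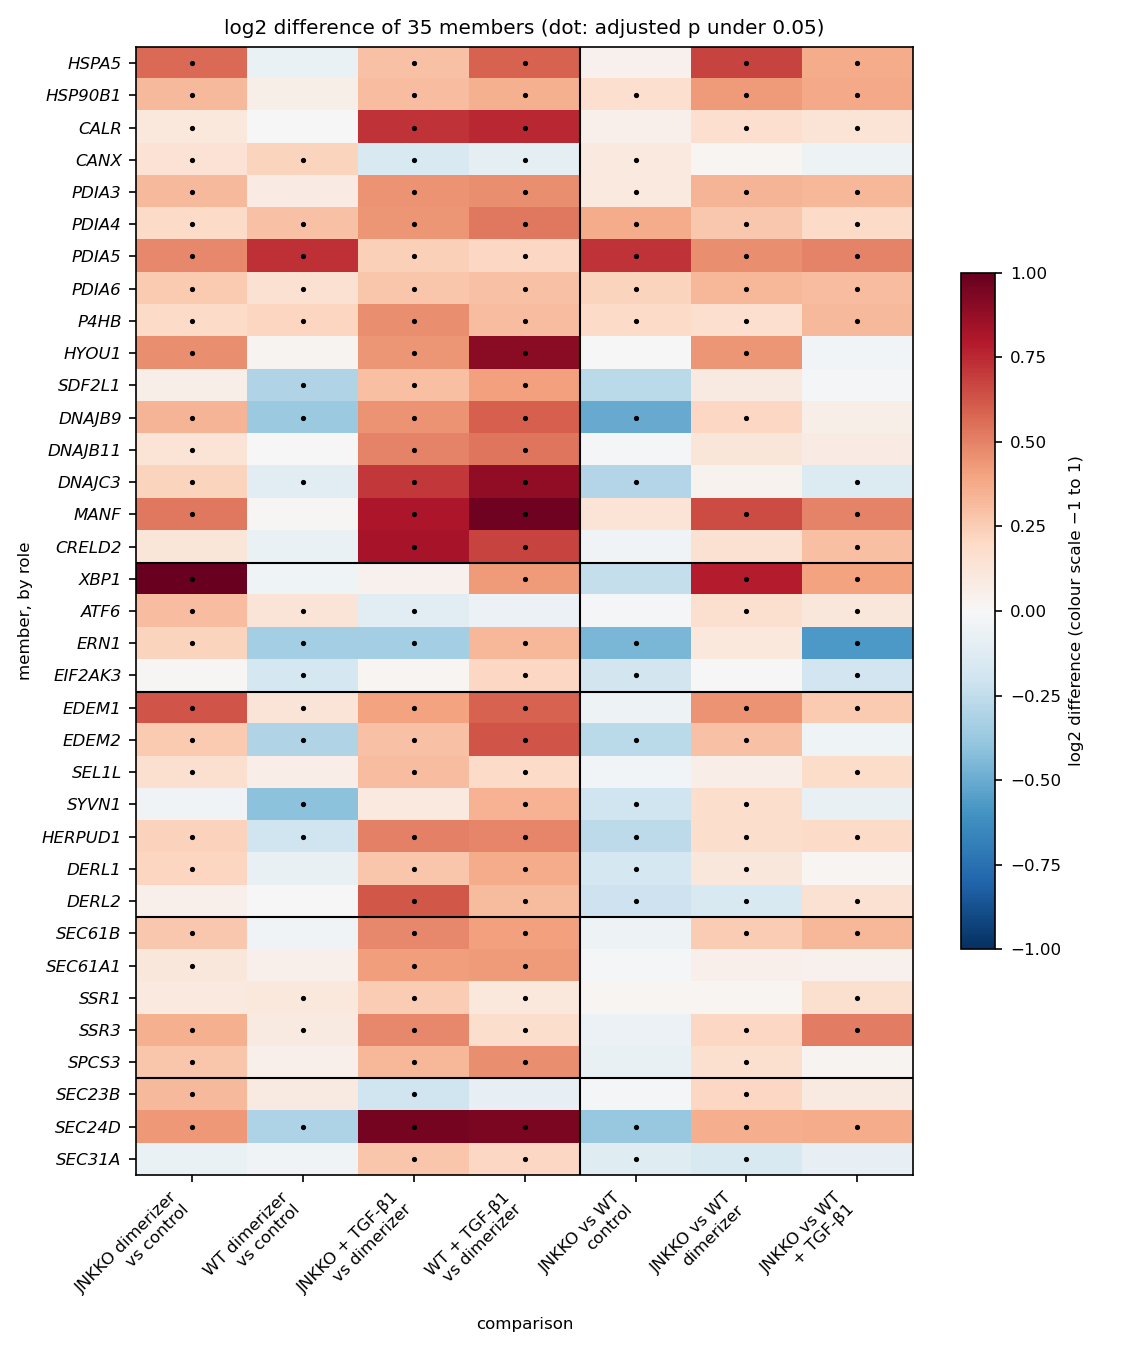
Log2 differences of the 35 tested members (rows) in 7 comparisons (columns), on a colour scale from -1 to 1, with a dot where the adjusted p is under 0.05. Dots mark 28 higher and 0 lower members for dimerizer in JNKKO, and 9 higher and 9 lower in WT. On log2(TPM + 1) ATF6 and SEC23B (TGF-β1 in JNKKO), CANX (TGF-β1 in WT, and JNKKO against WT with dimerizer), DERL1 (JNKKO against WT with dimerizer, and with TGF-β1) and SSR1 (JNKKO against WT with TGF-β1) have the opposite sign.

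JNKKO and WT were then compared within each treatment, using the same libraries as above. In control 7 members were higher and 11 lower in JNKKO, against 25.8% and 23.5% of all tested genes, with a median of -0.03 against 0.01. The genotypes did not overlap for 22 members and for 56.4% of all tested genes. All 7 higher members were chaperones or folding enzymes. The 11 lower ones held 5 degradation genes and 2 chaperones, DNAJB9 (log2 -0.50 ± 0.08) and DNAJC3 (-0.29 ± 0.04). DNAJB9 had the lowest log2 difference of the 35 members. PDIA5 had 18.03, 17.3 and 16.7 CPM in JNKKO and 9.71, 10.9 and 10.9 CPM in WT (log2 0.72 ± 0.08, adjusted p = 1.42e-08). ERN1 had 30.0, 29.7 and 35.2 CPM in JNKKO and 44.5, 40.8 and 44.99 CPM in WT (log2 -0.46 ± 0.07, adjusted p = 2.3e-05). Neither gene overlapped between the genotypes, nor did EDEM2 (log2 -0.27 ± 0.06) with 16.6, 17.3 and 17.9 CPM in JNKKO and 19.97, 21.6 and 20.8 CPM in WT. SEC24D was lower in JNKKO control, with a log2 difference of -0.38 ± 0.06.

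With dimerizer 23 members were higher and 2 lower in JNKKO than in WT, against 21.6% and 18.5% of all tested genes, with a median of 0.17 against 0.00404. Without overlap were 24 members and 50.3% of all tested genes. On log2(TPM + 1), where the median of all genes was also -0.09, 11 were higher and 2 lower, and without the second JNKKO dimerizer library 19 were higher and 2 lower. The calls lost without that library were SYVN1, HERPUD1, DNAJB9, SPCS3 and DERL1. HSPA5 was higher by 0.67 ± 0.04 (adjusted p = 7.03e-13), XBP1 by 0.79 ± 0.10 (adjusted p = 3.1e-05) and EDEM1 by 0.45 ± 0.03 (adjusted p = 1.8e-11). EDEM1 had 146, 156 and 148 CPM in JNKKO and 110.0, 108 and 111 CPM in WT, and the libraries of HSPA5 and XBP1 are given above. None of these 3 genes overlapped between the genotypes. SEC61B had 43.6, 38.3 and 41.8 CPM in JNKKO and 35.2, 33.5 and 34.8 CPM in WT (log2 0.26 ± 0.06), and SEC24D differed by 0.36 ± 0.06. Neither SEC61B nor SEC24D was called on log2(TPM + 1).

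With dimerizer and TGF-β1 20 members were higher and 3 lower in JNKKO, against 26.5% and 26.4% of all tested genes, with a median of 0.15 against -0.00398. Here 25 members and 59.4% of all tested genes had no overlap. The counts were 14 higher and 6 lower on log2(TPM + 1), and the log2 differences of SSR1 and DERL1 were negative. ERN1 had 29.7, 28.9 and 28.9 CPM in JNKKO and 40.5, 44.6 and 44.9 CPM in WT (log2 -0.57 ± 0.07, adjusted p = 1.02e-06). SSR3 had 159, 171 and 166 CPM in JNKKO and 112, 121 and 116 CPM in WT (log2 0.51 ± 0.04, adjusted p = 6.24e-12). PDIA5 had 29.04, 26.8 and 29.8 CPM in JNKKO and 18.6, 19.3 and 22.7 CPM in WT (log2 0.50 ± 0.07, adjusted p = 7.07e-07). No library of 1 genotype fell within the range of the other for these 3 genes. EDEM1 was higher by 0.26 ± 0.03, SEC24D by 0.37 ± 0.05, XBP1 by 0.40 ± 0.10 and HSPA5 by 0.37 ± 0.04. Without the replicate with both genotype labels 21 were higher and 3 lower, and the call of EIF2AK3 was lost.

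A list of 85 other genes of the same pathways, of which 84 were tested, gave 51 higher and 5 lower for dimerizer in JNKKO, where 22.5% of all tested genes rose and 17.9% fell. In WT it gave 30 higher and 25 lower, near the shares of all tested genes (30.3% and 25.6%). For TGF-β1 it gave 51 higher and 15 lower in JNKKO, against 30.5% and 30.3% of all tested genes, and 52 higher and 17 lower in WT, against 33.4% and 31.8%. In JNKKO with dimerizer 16 of its 22 folding genes, 14 of 20 translocation genes, 6 of 14 degradation genes and 7 of 16 export genes rose, and 2 export genes fell. HSPA13, an ER-associated member of the Hsp70 family, had 34.5, 46.6 and 37.3 CPM with dimerizer and 25.9, 24.4 and 21.0 CPM in JNKKO control (log2 0.74 ± 0.10). ERO1A, the oxidase that recharges disulfide isomerases, had 115, 106 and 115 CPM with dimerizer, against 67.9, 68.4 and 67.4 CPM in control (log2 0.72 ± 0.04). The remaining genes named by the rule were ERLEC1 (0.36 ± 0.05), VCP (0.31 ± 0.04), SEC61G (0.38 ± 0.05), OSTC (0.34 ± 0.04), SURF4 (0.28 ± 0.04) and SEC31B (-0.59 ± 0.07).

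The activity of PERK was not tested, and mRNA levels do not measure it. ATF4 and its targets CHAC1 and TRIB3 lie downstream of PERK and are not among the 36 genes. They belong to the 12 tested transcription factors and stress outputs of the list of other genes. Of these 12, 8 rose and 3 fell with dimerizer in JNKKO (median log2 0.28), where 22.5% of all tested genes rose and 17.9% fell. In WT 4 rose and 5 fell (median -0.04), against 30.3% and 25.6% of all tested genes. CHAC1 had 7.99, 13.7 and 8.24 CPM with dimerizer and 0.669, 0.388 and 0.919 CPM in JNKKO control (log2 3.93 ± 0.29, adjusted p = 2.62e-09). It had 2.99, 1.60 and 1.99 CPM with dimerizer and 0.127, 0.226 and 0.168 CPM in WT control (log2 3.62 ± 0.43, adjusted p = 9.37e-07). The groups did not overlap in either genotype. TRIB3 rose with dimerizer by 1.67 in JNKKO and 1.42 in WT, and ATF4 by 0.51 in JNKKO and 0.57 in WT. The interaction was not called for CHAC1 (0.32 ± 0.72), TRIB3 (0.25 ± 0.22) or ATF4 (-0.06 ± 0.05). CHAC1 lay near the floor in WT control (0.127 to 0.226 CPM), so its interaction cannot show that the responses were equal. The interaction was called for DDIT3, which encodes CHOP (0.84 ± 0.15, adjusted p = 7.36e-05). DDIT3 had 13.8, 19.0 and 14.1 CPM with dimerizer and 10.1, 9.53 and 9.54 CPM in JNKKO control (log2 0.69 ± 0.11, adjusted p = 1.55e-05), without overlap. In WT it had 12.1, 11.1 and 12.3 CPM with dimerizer and 15.0, 13.0 and 11.4 CPM in control, which overlapped (log2 -0.15 ± 0.11, adjusted p = 0.228). The second JNKKO dimerizer library, the highest for XBP1, was also the highest of its group for DDIT3, CHAC1, TRIB3 and ATF4. Fits without that library are not given for these genes.

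Returning to the promoters, 9 of the 11 members with a motif and 16 of the 21 without one rose with dimerizer in JNKKO, where 22.5% of all tested genes rose. The median log2 differences were 0.27 with a motif and 0.22 without one. For dimerizer in WT 3 of 11 with a motif rose and 2 fell, and 6 of 21 without one rose and 6 fell (medians -0.0059 and 0.01). Of all tested genes 30.3% rose and 25.6% fell in that comparison. For TGF-β1 the medians were 0.31 with a motif and 0.33 without one in JNKKO, and 0.42 with and 0.35 without in WT. For JNKKO against WT the medians with and without a motif were 0.0014 and -0.05 under ethanol, 0.21 and 0.16 under dimerizer, and 0.30 and 0.09 under dimerizer plus TGF-β1. The larger median lay with the genes without a motif for dimerizer in WT and for TGF-β1 in JNKKO, and with the motif genes in the other comparisons given here. XBP1 and HSPA5, with an ERSE at similar distances from the start, had log2 differences of 0.98 and 0.56 with dimerizer in JNKKO, and CANX, also with an ERSE, one of 0.14. EDEM1, which held none of the 3 motifs in these windows, rose by 0.63. These counts are a description and were not tested.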

How the data were processed

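Poly(A)-enriched, rRNA-depleted RNA was sequenced in paired 150-base reads, per the labels' protocols. The authors deposited expected counts and TPM per gene for 18 libraries; cutadapt, RSEM and hg38 are named in the submitters' processing notes. Expected counts were rounded to whole numbers. Of the gene names 127 had been altered by conversion (ERN1 among them) and were restored through the listed transcripts and GENCODE 29.

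Genes were filtered with filterByExpr, scaled by TMM and tested in 1 fit of all 6 groups with edgeR 4.0.16 (robust quasi-likelihood F test, R 4.3.3), adjusted over 16911 genes. SEs were derived from each log2 difference and its F value. CPM values are TMM-scaled. Totals of 24243537 to 34499651 counts and a common biological coefficient of variation of 4.466% set the precision. Alternatives were RLE scaling, no filter, DESeq2 1.42.0, limma 3.58.1 on log2(TPM + 1) and log2(TPM + 0.1), a fit of only the groups compared, a replicate block, mitochondrially encoded genes left out, and each library left out in turn. The fits were tested on simulated data; the share of small changes required to be recovered was lowered after the first result was seen, the misses lying mostly in genes of low count.

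The members, the list of other pathway genes and the comparisons were chosen with earlier results of these data known. Values per library are given for HSPA5, XBP1, HERPUD1, SEL1L, SEC24D and the called member with the largest log2 difference in each role and comparison; of the other pathway genes, the 2 largest called per subgroup for dimerizer in JNKKO are named. Motifs were searched at every listed start of each gene. This replaced, after its matches were seen, a search of the first-listed start alone, which found a motif in 9 of 32 members and 253 of 27305 genes. Groups follow the titles. No library pair agreed within sampling noise.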

Additional observations from a re-analysis of the deposited data

Results flagged for a closer look

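The response to dimerizer differed between JNKKO and WT, by the interaction term of edgeR's quasi-likelihood test at an adjusted p under 0.05, for 20 members. Of the 35 tested, 20 were positive and 0 negative, against 21.4% and 21.2% of all tested genes. The differences, JNKKO minus WT on the log2 scale, were HSPA5 (0.63), HSP90B1 (0.26), PDIA3 (0.24), HYOU1 (0.44), DNAJB9 (0.71), DNAJC3 (0.33), MANF (0.52), XBP1 (1.03), ATF6 (0.18), ERN1 (0.56), EDEM1 (0.50), EDEM2 (0.56), SYVN1 (0.38), HERPUD1 (0.43), DERL1 (0.29), SEC61B (0.31), SSR3 (0.27), SPCS3 (0.23), SEC23B (0.23) and SEC24D (0.74).

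The response to TGF-β1 on top of dimerizer differed in the same test for 10 members. Of the 35 tested, 3 were positive and 7 negative, against 14.1% and 18.8% of all tested genes. The positive count thus lay below the share of all tested genes and the negative count near it. The differences, JNKKO minus WT on the log2 scale, were HSPA5 (-0.30), P4HB (0.16), HYOU1 (-0.47), DNAJC3 (-0.17), ERN1 (-0.68), EDEM1 (-0.19), EDEM2 (-0.34), SYVN1 (-0.25), DERL2 (0.31) and SSR3 (0.30). Both interactions use the dimerizer libraries.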

How the results depend on the processing

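Over the 315 member results (35 genes in 9 comparisons), direction and side of the threshold were unchanged for 309 with RLE scaling, 303 with no filter, 301 with DESeq2, 302 with only the groups compared, 306 with mitochondrially encoded genes left out and 243 on log2(TPM + 1). A sign change of a value called in neither fit was not treated as a reversal; 206 of 5145 alternative values changed sign in that way, the largest at a log2 of 0.1644.

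The TPM scale moved the most results, and the cause was not tested. Shares of all genes called on that scale are not given, so the TPM counts below have no baseline. On log2(TPM + 1) and on log2(TPM + 0.1) members higher and lower numbered 15 and 3 for dimerizer in WT, 32 and 0 for TGF-β1 in JNKKO, 32 and 0 for TGF-β1 in WT, 6 and 9 for JNKKO against WT in ethanol, 11 and 2 under dimerizer, 14 and 6 under TGF-β1, 11 and 5 for the dimerizer interaction, and 3 and 4 for the TGF-β1 interaction. With no filter they were 14 and 3, 32 and 0, 32 and 0, 6 and 8, 10 and 2, 14 and 5, 9 and 5, and 2 and 3 in the same order. Log2 values with the opposite sign on log2(TPM + 1), with and without the filter, were SEC23B 0.065 and ATF6 0.137 for TGF-β1 in JNKKO, CANX 0.060 for TGF-β1 in WT, DERL1 -0.024 and CANX -0.142 for JNKKO against WT with dimerizer, and SSR1 -0.104 and DERL1 -0.207 with TGF-β1. On log2(TPM + 0.1) they were SEC23B 0.067, ATF6 0.146, CANX 0.060, DERL1 -0.024, CANX -0.143, SSR1 -0.105 and DERL1 -0.209.

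For TGF-β1 in WT, 0 members were lower with no filter and 2 with only the groups compared. For JNKKO against WT with dimerizer 1 was lower with no filter and with DESeq2, and for the dimerizer interaction 1 was negative with only the groups compared.

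Leaving out 1 library gave 25 to 28 higher and 0 lower for dimerizer in JNKKO, 6 to 10 and 6 to 8 in WT, 27 to 29 and 3 to 4 for TGF-β1 in JNKKO, 29 to 32 and 0 to 1 in WT, 5 to 7 and 10 to 11 for JNKKO against WT in ethanol, 19 to 25 and 1 to 2 under dimerizer, 18 to 21 and 1 to 3 under TGF-β1, 20 to 21 and 0 to 1 for the dimerizer interaction, and 3 to 5 and 5 to 9 for the TGF-β1 interaction. Calls lost in 4 or 5 of the 6 such fits were CALR and DNAJB11 for dimerizer in JNKKO, DNAJC3, EIF2AK3, SSR1, SDF2L1 and SSR3 in WT, ATF6 for TGF-β1 in JNKKO, SSR1 and CANX in WT, PDIA3 and EIF2AK3 for JNKKO against WT in ethanol, and DNAJB9 and DERL1 under dimerizer.

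Replicate numbers did not pair the samples: deviations of same-numbered libraries correlated between -0.059 and 0.053. With the replicate block 12 members were lower in JNKKO control than in WT, and 310 of the 315 results were unchanged. SDF2L1, PDIA5 and DNAJB9 had the lowest CPM of the tested members in any 1 library, at 9.44, 9.71 and 12.5, and DERL3 could not be tested.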
